A study of Rattus norvegicus with 6 samples.

Results

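Messenger RNA of 10 genes for calcium release from the sarcoplasmic and endoplasmic reticulum was compared after knockdown of the long non-coding RNA Tug1. The genes were the ryanodine receptors Ryr1, Ryr2 and Ryr3, the inositol trisphosphate (IP3) receptors Itpr1, Itpr2 and Itpr3, the channel partner Fkbp1b, the junctophilins Jph1 and Jph2, and the triadin gene Trdn. They were taken by gene symbol from a count table of 40456 genes, and all 10 were found there. Of these, 7 had enough counts to be tested, among 14216 tested genes in all. The cells were H9c2, a rat cardiomyoblast line that the labels list as wild type (WT). Both groups were differentiated for 5 days in medium with 1% serum and 1 µM retinoic acid, and then received 25 nM of an antisense oligonucleotide by lipid transfection for 24 h before lysis. The 3 control libraries came from cells given a negative control gapmer, and the 3 knockdown libraries from cells given a gapmer against Tug1. A gapmer is a locked nucleic acid (LNA) oligonucleotide that directs RNase H to the RNA it pairs with, so it lowers an RNA without changing its gene. A single gapmer sequence was used against Tug1, and the cells were 1 established line, which limits the comparison to that sequence and that line. The labels do not say whether replicates were separate cultures, and p-values then measure the spread between these libraries, which may be technical.

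Ryanodine receptors and IP3 receptors are the channels through which stored calcium leaves the reticulum. In striated muscle, ryanodine receptors sit where reticulum and plasma membrane are held close together by junctophilins. In skeletal muscle Ryr1 is opened through contact with the voltage sensor of the surface membrane. In heart muscle Ryr2 is opened by calcium that enters through the L-type channel. IP3 receptors open when phospholipase C makes IP3, and part of the calcium they release is taken up by nearby mitochondria.

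The gapmer sequences, as the labels give them, are shown because they are the difference between the groups. Each is a single strand written 5′ to 3′ in lower case.
Tug1 gapmer: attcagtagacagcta
Negative control gapmer: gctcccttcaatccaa
They have 16 bases each, of which 6 are G or C in the Tug1 gapmer and 8 in the control gapmer.

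Promoter windows were looked up by symbol in a RefSeq table of the rat assembly GRCr8, and 9 of the 10 members matched, Ryr3 with 2 windows. Jph1 had no entry. The 250 bases before the annotated start are shown for 3 genes that rose after knockdown (Ryr1, Itpr1 and Trdn) and for the gene that fell (Fkbp1b). Capitals mark matches on either strand to the E-box letters CANNTG, to GGGCGG and to CCAAT, and no match overlapped another in these windows.
Ryr1, chr1:93551306-93551555, minus strand: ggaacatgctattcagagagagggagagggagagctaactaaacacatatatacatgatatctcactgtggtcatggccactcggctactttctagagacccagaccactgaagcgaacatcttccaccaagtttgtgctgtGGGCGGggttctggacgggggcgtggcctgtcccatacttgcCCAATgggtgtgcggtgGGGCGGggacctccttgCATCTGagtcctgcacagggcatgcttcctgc
Itpr1, chr4:142743190-142743439, plus strand: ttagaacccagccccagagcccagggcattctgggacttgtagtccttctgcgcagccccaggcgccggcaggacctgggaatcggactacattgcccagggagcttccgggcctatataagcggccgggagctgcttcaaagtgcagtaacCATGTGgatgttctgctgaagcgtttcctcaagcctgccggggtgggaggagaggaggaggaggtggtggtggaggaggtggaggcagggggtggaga
Trdn, chr1:26229600-26229849, minus strand: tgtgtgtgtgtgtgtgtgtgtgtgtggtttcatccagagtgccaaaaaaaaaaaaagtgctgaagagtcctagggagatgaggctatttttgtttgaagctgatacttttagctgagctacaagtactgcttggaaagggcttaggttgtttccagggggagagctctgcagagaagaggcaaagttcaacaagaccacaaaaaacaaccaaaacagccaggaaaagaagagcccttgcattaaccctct
Fkbp1b, chr6:33568130-33568379, minus strand: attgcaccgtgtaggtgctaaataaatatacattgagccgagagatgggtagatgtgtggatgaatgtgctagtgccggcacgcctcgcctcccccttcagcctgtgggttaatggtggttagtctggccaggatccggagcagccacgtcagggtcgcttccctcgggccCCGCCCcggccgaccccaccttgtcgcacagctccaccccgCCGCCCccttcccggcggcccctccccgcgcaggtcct
The Ryr1 window held 1 E-box match, 2 GGGCGG matches and 1 CCAAT match. The Itpr1 window held 1 E-box match and none of the others. The Fkbp1b window held 2 GGGCGG matches on the opposite strand and no E-box match, and the Trdn window held no match to any of these. An E-box match was found for 6 of the 9 members, against 65.5% of all 33469 rat promoter windows of that length. A GGGCGG match was found for 6 members (30.5% of all windows) and a CCAAT match for 3 (34.0% of all windows). The windows differed in base composition. The Fkbp1b window was 64.4% G or C with 19 CpG sites, and the Trdn window 44.0% with 0 CpG sites, beside medians of 51.2% and 5 over all windows. These matches describe letters and say nothing about binding.

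Libraries held between 12978548 and 13544337 counts. Levels below are CPM, counts scaled to library size with TMM factors, and 1 CPM stood for 12.9 to 13.8 counts. A gene at 3 counts or fewer was taken as not detected, which is 0.217 to 0.232 CPM and covers counting error only. Tug1 was at 54.7, 52.0 and 55.4 CPM in the control libraries and at 11.9, 11.2 and 12.5 CPM after knockdown, 22.0% of the control mean, so the values follow the labels. The labels call the cells cardiomyocytes. Of 12 cardiomyocyte markers, 8 were too low to be tested, among them Myh6, Tnni3, Nppa and Nkx2-5, while Tnnt2 had 349 ± 18.0 CPM (SD, n = 3) in controls. Of 14 skeletal muscle markers, 11 were tested, with Myog at 275 ± 4.39 CPM and embryonic myosin Myh3 at 176 ± 9.29 CPM in controls (SD, n = 3). Fibroblast markers were also present, with 5 of 6 tested and Col1a1 at 21693 ± 697 CPM in controls (SD, n = 3). All 6 smooth muscle markers were tested, with Acta2 at 638 ± 33.1 CPM and Tagln at 290 ± 17.7 CPM in controls (SD, n = 3).

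By the quasi-likelihood test of edgeR, 5 of the 7 tested members changed at an adjusted p under 0.05, 4 higher (Ryr1, Itpr1, Trdn and Jph2) and 1 lower (Fkbp1b) after knockdown. Over all tested genes 61.7% passed, 30.8% higher and 30.9% lower, so a member's call on its own was what most genes showed. The median log2 fold change of the 7 was 0.37, which is the value of the uncalled Ryr3, beside 0.00 over all tested genes. With the offset for gene length described below, the members' median was 0.01, beside 0.00 over all genes in that fit. The same 5 members had groups that did not overlap, which held for 65.6% of all tested genes. In these bulk libraries, a change in the number of cells of a kind and a change in RNA per cell cannot be told apart. Ryr2, Itpr2 and Jph1 were below the expression filter and were not tested.

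**Figure D1:**
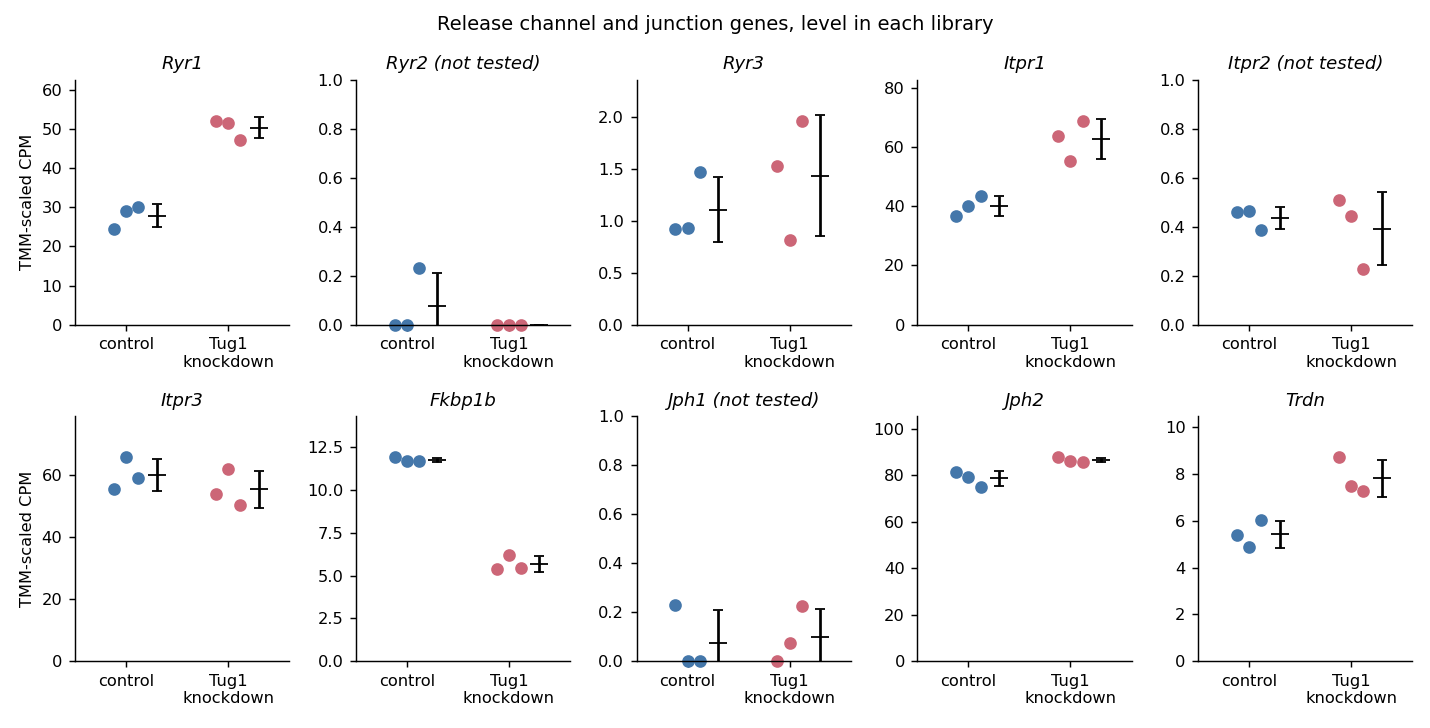
TMM-scaled CPM (y axis, from 0, with its own range in each panel) of the 10 genes in each of the 3 control (blue) and 3 Tug1 knockdown (red) libraries, where a point is a library and the black mark beside the points is the group mean with its SD. The groups are apart for Ryr1, Itpr1, Fkbp1b, Jph2 and Trdn, overlap for Ryr3 and Itpr3, and lie near 0 for Ryr2, Itpr2 and Jph1.

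Among the ryanodine receptors, Ryr1 rose and was the only one with more than 26 counts in a library. Ryr1, the release channel of skeletal muscle, was at 24.5, 29.0 and 29.9 CPM in the control libraries, replicates 1 to 3, against 52.1, 51.5 and 47.3 CPM with the Tug1 gapmer. Every knockdown library lay well above the highest control library. The group means were 27.8 ± 2.88 and 50.3 ± 2.63 CPM (SD, n = 3). This is a 1.81-fold rise, or 0.85 on the log2 scale (SE 0.0767), at an edgeR adjusted p of 1.79e-09.

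Ryr3, which is found at low levels in many tissues, was near the detection range of the test. It had 12, 12 and 19 counts in the control libraries and 21, 11 and 26 counts after knockdown. The groups overlapped, since knockdown replicate 2 was the lowest of all 6 libraries. Its log2 fold change of 0.37 (95% interval -0.35 to 1.09, edgeR adjusted p 0.367) did not pass, and the interval leaves room for a fall as well as for a rise as large as that of Ryr1. It was 0.09 without knockdown replicate 3 and 0.65 without knockdown replicate 2, and between these values without any other library. With the length offset it was -0.06. Ryr2, the release channel of heart muscle, had 3 counts in control replicate 3 and 0 in the other 5 libraries. It was not detected above the limit in any library, and no fold change is given. Ryr1 held 96.0% ± 1.19 of the summed Ryr1 to Ryr3 counts in controls and 97.2% ± 1.22 after knockdown (SD, n = 3). These shares overlapped (exact permutation test, two-sided, p = 0.4). Longer transcripts give more counts, so these are shares of counts and not of molecules.

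Among the IP3 receptors, Itpr1 rose while Itpr3 did not pass the test. Itpr1, the form best known from neurons, was at 36.8, 40.2 and 43.5 CPM in the control libraries, against 63.7, 55.3 and 68.9 CPM with the Tug1 gapmer. The lowest knockdown library, replicate 2, was still above the highest control library. The means were 40.2 ± 3.34 and 62.6 ± 6.84 CPM (SD, n = 3). This is a 1.56-fold rise, or 0.64 on the log2 scale (SE 0.077), at an edgeR adjusted p of 1.76e-07. With the length offset the rise was 0.27 on the log2 scale and still passed.

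Itpr3, a form common in epithelia and secretory cells, was at 55.5, 65.6 and 58.8 CPM in controls and at 53.9, 61.9 and 50.4 CPM after knockdown. The groups overlapped, with replicate 2 the highest library in each. Its log2 fold change was -0.11 (95% interval -0.27 to 0.04, edgeR adjusted p 0.185). Without knockdown replicate 2 it passed as lower (-0.20, edgeR adjusted p 0.0244). Itpr2, the form most often linked to heart muscle, had 6, 6 and 5 counts in controls and 7, 6 and 3 counts after knockdown, which is above the limit of 3 counts in 5 of 6 libraries but below the filter.

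The makeup of IP3 receptor counts moved from Itpr3 towards Itpr1. Itpr1 held 39.7%, 37.8% and 42.3% of the summed Itpr1 to Itpr3 counts in the control libraries and 54.0%, 47.0% and 57.6% after knockdown. The groups did not overlap, and the difference of 12.9 percentage points had p = 0.1 in an exact two-sided permutation test, the smallest that 3 against 3 libraries can give. The log2 ratio of Itpr1 to Itpr3 counts went from -0.58 ± 0.137 to 0.18 ± 0.312 (SD, n = 3), also with an exact permutation p of 0.1. Such a ratio does not depend on the totals of the libraries, but the trend on gene length described below acts on it, since Itpr1 is the longer gene. With the length offset, fitted changes were 0.27 for Itpr1 and -0.24 for Itpr3. Summed over the family, IP3 receptor levels went from a control mean of 101 ± 7.03 to 118 ± 0.938 CPM (SD, n = 3) without overlap (exact permutation p = 0.1). Itpr1 was the only gene of the family whose mean rose. The total was not computed with the length offset, so whether it rises apart from the trend on gene length was not tested.

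**Figure D2:**
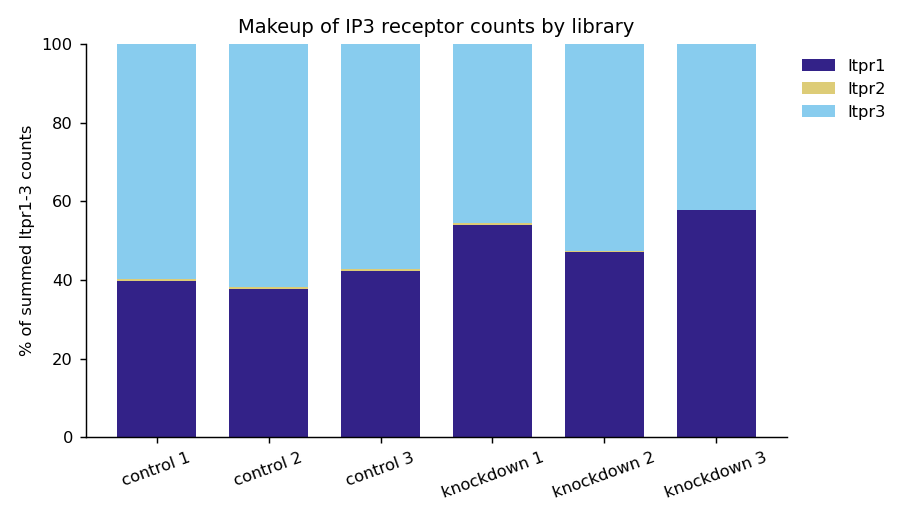
Percent of the summed Itpr1, Itpr2 and Itpr3 counts (y axis) held by each gene in each of the 6 libraries, as stacked bars. Itpr1 holds between 37.8% and 42.3% in the control libraries and between 47.0% and 57.6% in the knockdown libraries, and Itpr2 is a sliver at the boundary in every bar.

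Fkbp1b, which encodes a small immunophilin that binds ryanodine receptors and favours their closed state, was the member that fell. It was at 11.9, 11.7 and 11.6 CPM in the control libraries, against 5.36, 6.21 and 5.44 CPM with the Tug1 gapmer. The control libraries were nearly equal, and all knockdown libraries lay far below them. The knockdown mean was 48.3% of the control mean, or -1.05 on the log2 scale (SE 0.129), at an edgeR adjusted p of 2.41e-07. Its close relative Fkbp1a, named with the partner list below, fell less, from 444 ± 10.7 to 379 ± 2.54 CPM (SD, n = 3). Its change was -0.23 on the log2 scale (SE 0.042), at an edgeR adjusted p of 5.27e-05. The log2 ratio of Fkbp1b to Fkbp1a counts was -5.24 ± 0.0413 in controls and -6.06 ± 0.127 after knockdown (SD, n = 3). These ratios did not overlap (exact permutation p = 0.1). How reads shared by such relatives were assigned was not given in the sources used here. In GRCr8, Fkbp1b overlaps the splicing factor gene Sf3b6. Sf3b6 itself was at 34.6 ± 1.10 and 33.4 ± 1.22 CPM (SD, n = 3) and did not pass the test (log2 fold change -0.05, edgeR adjusted p 0.555).

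Of the ratios computed, that of Ryr1 to Fkbp1b changed most. Fkbp1b held 2.58% ± 0.0715 of the summed Fkbp1a and Fkbp1b counts in controls and 1.48% ± 0.131 after knockdown (SD, n = 3). A ratio of Ryr1 to Fkbp1a was not computed. The log2 ratio of Ryr1 to Fkbp1b counts was 1.05, 1.31 and 1.36 in the control libraries, against 3.28, 3.05 and 3.12 with the Tug1 gapmer. The means differed by 1.91 on the log2 scale (exact permutation p = 0.1). This pair sets the member that rose most over the only member that fell, so its large change follows from those results. With the length offset described below, fitted changes were 0.61 for Ryr1 and -1.01 for Fkbp1b. The ratios were not among the planned comparisons. The ratio of Ryr1 to Itpr1 counts overlapped between the groups (difference 0.22, exact permutation p = 0.3). In all, 5 such ratios were compared, with an adjusted p of 0.125 for the 4 without overlap and of 0.3 for the other.

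The junction genes moved less. Jph2, the junctophilin of heart muscle that is also made in skeletal muscle, was at 81.5, 79.3 and 75.0 CPM in controls and at 87.7, 86.2 and 85.7 CPM after knockdown. The groups were apart by a small step, and the rise was 0.14 on the log2 scale (SE 0.0544), at an edgeR adjusted p of 0.0306. This call did not hold with DESeq2's Wald test (adjusted p 0.0645) or with the length offset (0.01), and it was lost on leaving out any of control replicates 2 and 3 or knockdown replicates 1 and 2 (edgeR adjusted p up to 0.118). Jph1, the skeletal muscle form, had at most 3 counts in any library and was not detected.

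Trdn, which encodes triadin, the reticulum membrane protein that ties calsequestrin to the ryanodine receptor, was at 5.37, 4.88 and 6.02 CPM in controls and at 8.70, 7.47 and 7.25 CPM after knockdown. The lowest knockdown library was above the highest control library. The rise was 0.53 on the log2 scale (SE 0.148), at an edgeR adjusted p of 0.00376, and 528 counts over the 6 libraries stood behind it. With the length offset it was 0.12 and did not pass (edgeR adjusted p 0.5).

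Across all tested genes, the log2 fold change rose with genomic span, the distance from the start to the end of a gene, introns included. The median was -0.21 in the shortest decile of genes and 0.33 in the longest, where 56.1% were called higher. Ryr3 (percentile 99.4 of span), Trdn (99.0), Itpr1 (98.0) and Ryr1 (91.4) were in the longest decile, Itpr3 (79.5) and Jph2 (78.9) below it, and Fkbp1b (44.1) near the middle. With the trend on span removed from each library, Ryr1 was at 0.61 (SE 0.0764, edgeR adjusted p 3.77e-07) and Fkbp1b at -1.01 (SE 0.127, edgeR adjusted p 4.11e-07). Itpr1 was at 0.27 (SE 0.0732, edgeR adjusted p 0.00327). Itpr3 then passed as lower (-0.24, SE 0.0756, edgeR adjusted p 0.00789). Under this offset 4 of the 7 tested members passed, 2 higher and 2 lower, where 62.1% of all genes in that fit passed, 30.3% higher and 31.8% lower.

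**Figure D3:**
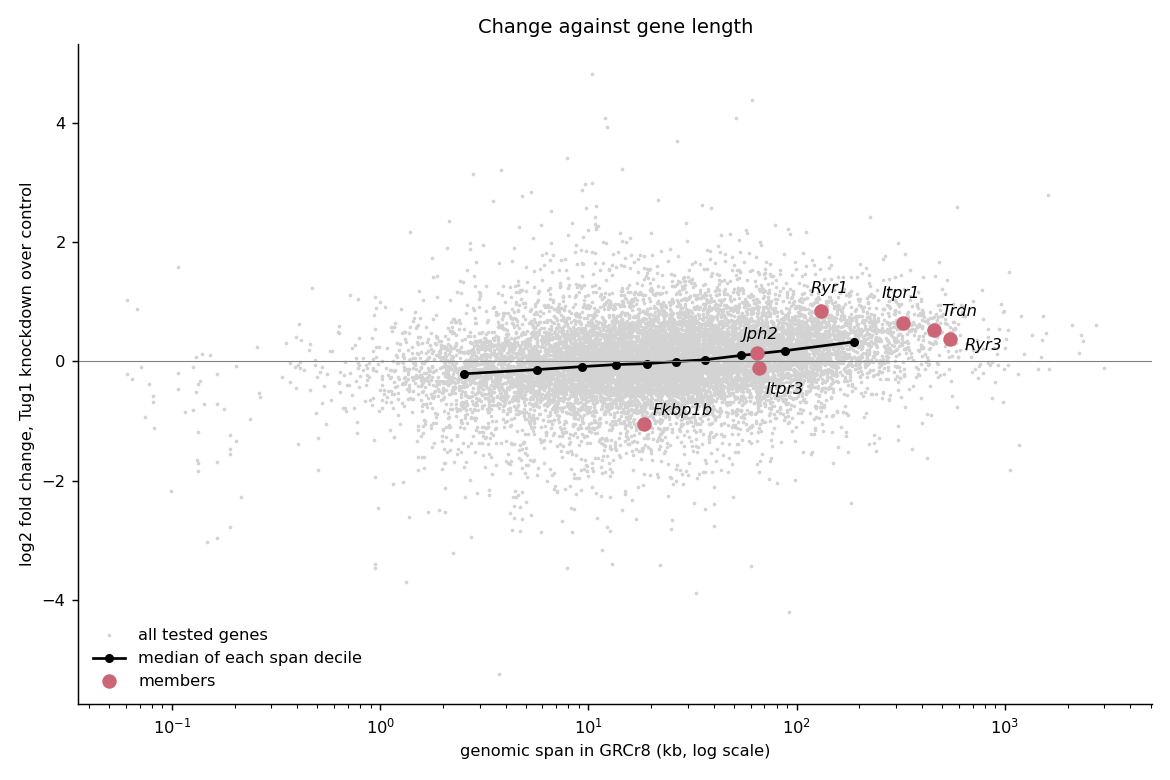
Log2 fold change of Tug1 knockdown over control (y axis) against genomic span in kb (x axis, log scale) for the tested genes with a span (grey), with the median of each decile of genes by span (black) and the 7 tested members (red). The black line climbs from -0.21 to 0.33, and Ryr1 lies above it while Fkbp1b lies well below it.

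**Figure D4:**
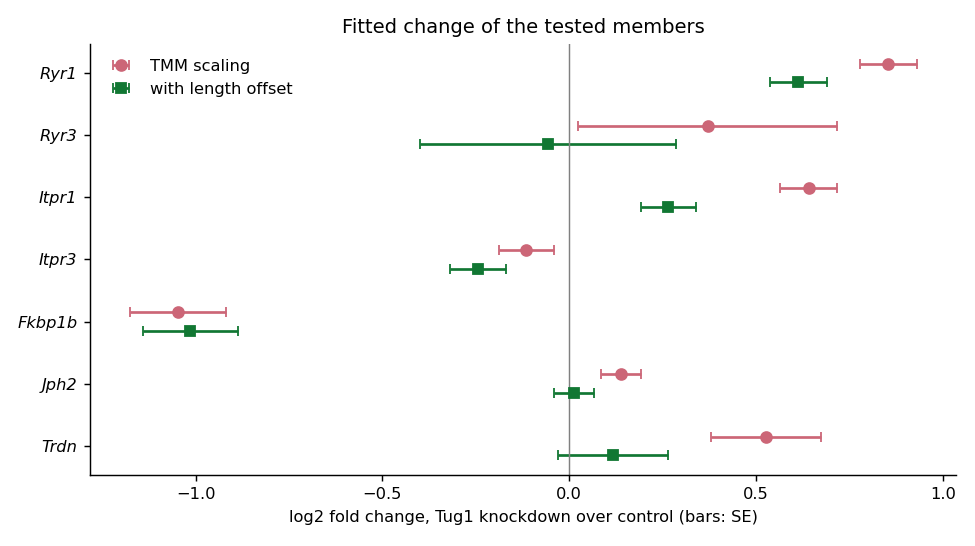
Log2 fold change of the 7 tested members (x axis, bars are the SE) in the TMM-scaled fit (red circles) and in the fit with the length offset (green squares). Ryr1 and Itpr1 stay to the right of 0 and Fkbp1b stays at about -1.0 in both fits, while Ryr3, Jph2 and Trdn move to values near 0 with the offset.

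Partners of the members were compared as lists, with counts read against the 61.7% of all tested genes that passed. Among 16 tested ryanodine receptor partners, 7 rose, 3 fell and 6 did not pass, a share of 62.5% and so close to that of all genes. With the length offset 5 of the 16 rose and 3 fell, where 62.1% of all genes in that fit passed. The reticulum cation channel gene Tmem38a, which balances charge during calcium release, rose from 179 ± 0.827 to 274 ± 12.9 CPM (SD, n = 3, log2 fold change 0.61). Casq2, the calsequestrin of heart muscle that holds calcium in the reticulum lumen, fell by 0.26 on the log2 scale, and the selenoprotein gene Selenon, mutated in a congenital myopathy, fell by 0.21.

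Among 12 tested junction and T-tubule genes, 8 rose, 2 fell and 2 did not pass, with a median log2 fold change of 0.46. With the length offset 8 rose and 3 fell, where 30.3% of all genes in that fit rose and 31.8% fell. The membrane-curving protein gene Bin1, needed for T-tubules, rose from 73.4 ± 1.15 to 157 ± 4.01 CPM (SD, n = 3, log2 fold change 1.10). Speg (0.46), a kinase found at the muscle triad, and the membrane repair gene Dysf (0.25) also rose, Dysf not with the length offset (-0.06). Dnm2, a membrane-cutting GTPase, was at -0.01 and did not pass, but it passed as lower with the length offset (-0.17). Cacna1s, the voltage sensor that opens Ryr1, was chosen after its values were seen, and it rose from 7.47 ± 1.07 to 22.0 ± 2.00 CPM (SD, n = 3, log2 fold change 1.55). Its adaptor Stac3, chosen likewise, rose by 1.11. The 2 genes of the list that fell, also named after their values were seen, were Stac2 (-1.04) and Mtm1 (-0.32). Both passed as lower with the length offset too (-0.99 and -0.28). Skeletal muscle markers moved alongside, with 8 of 11 tested higher and 2 lower, beside 30.8% higher and 30.9% lower over all tested genes. With the length offset 8 were higher and 1 lower. Their summed level ran from 790 to 796 CPM in controls and from 1168 to 1250 CPM after knockdown. Myf5, Myh2 and Myh4 of that list were too low to be tested. The markers Myog (0.82) and Myh3 (0.64) rose. The 2 lower markers were Myod1, which fell by 0.32 but not with the length offset (-0.13), and the myosin gene Myh1. Myh1 was at -0.76, and it also passed as lower with the length offset (-0.75). Of 4 tested cardiomyocyte markers 3 rose and none fell, though Gata4 passed as lower with the length offset (-0.40), and the list's sum ran from 359 to 391 CPM in controls and from 419 to 472 CPM after knockdown. Of 5 tested fibroblast markers 1 rose (Dcn, log2 fold change 0.57) and 3 fell, with sums from 37000 to 38717 CPM and from 32071 to 34753 CPM. Most of these sums was Col1a1 and Col1a2, with control means of 21693 and 15137 CPM. Of 6 tested smooth muscle markers 4 rose and none fell, with sums from 976 to 1070 CPM and from 1134 to 1290 CPM. Whether these markers have a part in the rise of Ryr1 and of the junction genes was not tested.

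Genes that act on IP3 receptors moved in both directions. Of 15 tested, 6 rose, 6 fell and 3 did not pass, with a median log2 fold change of -0.04. Ahcyl1, whose product competes with IP3 at the receptor, rose from 217 ± 7.76 to 408 ± 5.07 CPM (SD, n = 3, log2 fold change 0.91). The reticulum membrane protein gene Tmbim6 (0.18) and the lumenal chaperone gene Erp44 (0.17) rose, Erp44 not with the length offset (-0.01), and Bcl2l1 (0.05) did not pass. Other members of the list, chosen after their values were seen, had larger changes. Bok, a BCL2 family protein that binds IP3 receptors, fell from 28.6 ± 3.43 to 9.26 ± 1.28 CPM (SD, n = 3, log2 fold change -1.63). Itprip, an inhibitor of IP3 receptor opening, was at -1.14 and Bcl2 at -1.09. Irag1, a receptor partner targeted by cGMP-dependent kinase, was at 1.27.

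For IP3 itself, 12 genes of production were tested, of which 5 rose, 4 fell and 3 did not pass. With the length offset 3 rose and 4 fell. The phospholipase Plcg1 (0.51) and the G protein gene Gnaq (0.53, or 0.19 with the length offset) rose, while the phospholipase Plcb3 (-0.65) and Gna11 (-0.29) fell. Of 9 tested genes of IP3 removal, 4 rose, 3 fell and 2 did not pass. The phosphatase Inpp5a, which ends the IP3 signal, rose from 68.5 ± 1.36 to 115 ± 2.73 CPM (SD, n = 3, log2 fold change 0.75, or 0.44 with the length offset), Inpp5b rose by 0.40 and Ipmk by 0.59, and Impa1 was at -0.02 and did not pass. Among 15 tested genes of contacts between reticulum and mitochondria, 8 rose, 5 fell and 2 did not pass. The tether Esyt1 fell by 0.85 and Bcap31 by 0.30, and Hspa9 was at 0.05 without a call.

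**Figure D5:**
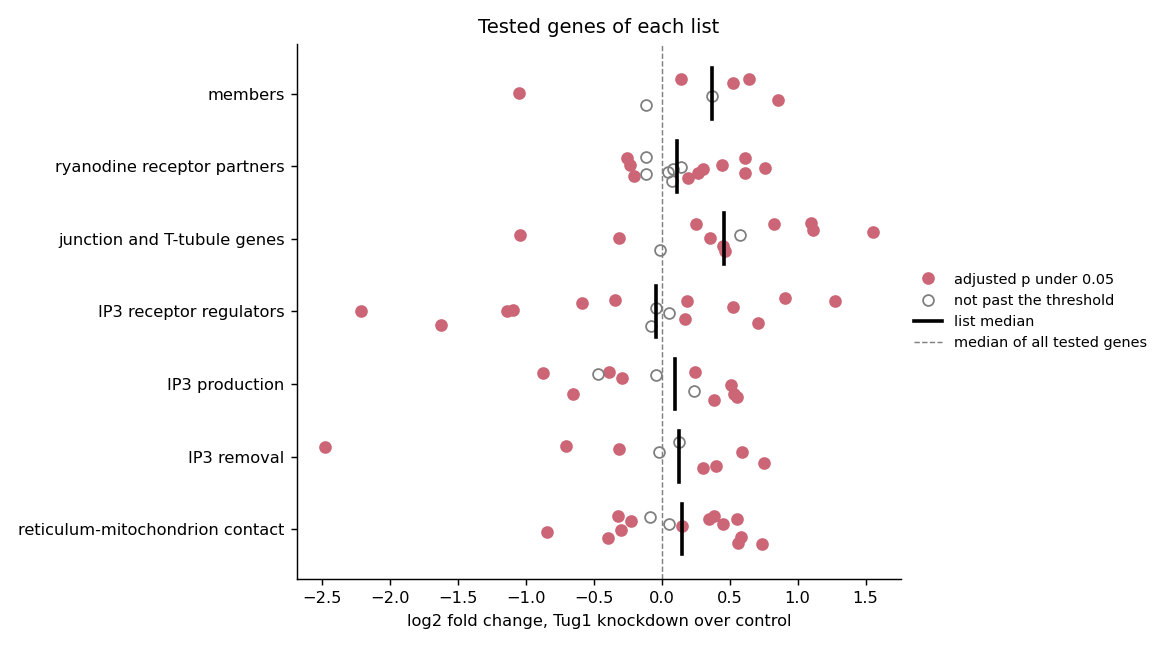
Log2 fold change of Tug1 knockdown over control (x axis) for each tested gene of the members and of the 6 partner lists (rows), with filled points for an edgeR adjusted p under 0.05, open points for the rest, a black bar at each list's median and a dashed line at the median of all tested genes. The junction and T-tubule median lies at 0.46, and the IP3 receptor regulators spread from -2.21 to 1.27 around a median of -0.04.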

How the data were processed

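Per the labels, poly-A RNA was made into stranded libraries. The deposited table holds the authors' raw counts by gene symbol, as whole numbers with 1 column per library. The submitters' processing notes name FastQC 0.11.7, fastp 0.14.1 and STAR 2.5; counting tool, strand setting, build and annotation are not given in the sources used here. All 10 members and all lists were chosen with earlier results of these data known.

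Counts were analysed with edgeR 4.0.16 in R 4.3.3: expression filter (minimum count 10), TMM, quasi-likelihood test without a block, two-sided, Benjamini-Hochberg adjustment over 14216 genes, threshold 0.05. Log2 fold changes are knockdown over control. Family totals, shares and ratios were compared by exact permutation over libraries, as raw-count shares because coding lengths were not used here; the 8 family totals and shares had adjusted p-values of 0.133 to 0.400. Named were Tug1, the members and the 4 tested genes with most counts per partner list, with exceptions stated; 1 gene that met this rule is not reported here. Alternatives were DESeq2 1.42.0, limma-voom (limma 3.58.1), other scalings and filters, a threshold of 0.01, a block, a length offset (lowess span 0.3, GRCr8 spans for 13090 genes) and each library left out. The edgeR fit was tried on simulated counts, and the other steps were not. Chi-square per degree of freedom between replicates was 2.15 to 3.55, so no pair agreed within sampling noise.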

Additional observations from a re-analysis of the deposited data

How the results depend on the processing

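The number of members called changed was 5, and it was 4 or 5 in each of 16 alternatives, the fits without a library included. The number of tested genes called changed was 8773 and ran from 7353 to 8987. Tug1, Ryr1, Itpr1 and Fkbp1b kept direction and call in each of the 16 alternatives, with log2 fold changes of 0.61 to 0.91 for Ryr1, 0.27 to 0.72 for Itpr1 and -1.12 to -0.996 for Fkbp1b. Jph2 lost its call in 9 alternatives (0.01 to 0.19 over all), and Trdn in 2, both with the length offset (0.12 to 0.61 over all). Itpr3 gained a call as lower in 3 alternatives (-0.25 to -0.05 over all). Ryr3, never called, turned to -0.0561 with the length offset and to -0.0567 with the length offset and the replicate block. The labels do not say whether replicate numbers pair the libraries. Same-numbered libraries deviated from their groups with correlations across genes of -0.0053, 0.0298 and 0.0270. These values show little shared deviation, but they cannot show whether such libraries were handled together. With the replicate block, 5 members and 8848 genes were called, Ryr1 was at 0.86, Itpr1 at 0.64 and Fkbp1b at -1.05. Family totals and shares kept their direction on leaving out any library, and totals also with library totals in place of TMM, but 3 against 3 libraries allow no exact p under 0.1. Neither shares nor totals were computed with the length offset. Shares and totals per coding length, which were planned, were not run. Depth limits Ryr2, Jph1, Itpr2 and Ryr3, which had 3 to 101 counts over the 6 libraries.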

Other observations

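Jph3 and Jph4, the junctophilins of nerve cells, were below the filter. Jph3 counts were 0, 4 and 0 with the control gapmer and 7, 14 and 3 with the Tug1 gapmer, so the groups overlapped. Itpka, a kinase that removes IP3, was chosen after its values were seen. It had 26, 21 and 35 counts in controls and 2, 10 and 3 counts after knockdown. Itpripl1, a relative of Itprip chosen likewise, had 51, 39 and 36 counts in controls and 10, 7 and 11 counts after knockdown.

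Likeness of pattern was described by Pearson's r of log2 CPM over the 6 libraries, for the 3 members with the most counts. The libraries fall into 2 groups, so for Jph2 and Itpr1, whose groups were apart, r mostly measures that difference. The groups of Itpr3 overlapped, so its r also takes in differences between libraries of the same group. No test was made. The genes most like Jph2 were Dnah17, Eral1 and Pam16 (r from 0.993 to 0.996), those most like Itpr1 were Zfp710, Hebp1 and Adk (0.998 to 0.999), and those most like Itpr3 were Use1, Aspm and Tm7sf2 (0.974 to 0.990).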
